A study of Homo sapiens with 2 samples.

Results

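The AP-1 transcription factors were followed by RNA sequencing after knockdown of the kinase CDK14 in MDA-MB-231, a human triple-negative breast cancer cell line in wide use. The 9 genes FOS, FOSB, FOSL1, FOSL2, JUN, JUNB, JUND, ATF3 and BATF3 were taken by gene name from a table of 29452 gene rows, and all 9 were found. They were chosen by family, with earlier results of these data known. The study held 2 libraries, 1 from cells with a short hairpin RNA against CDK14 (CDK14-sh) and 1 from cells with a scramble control, holding 15478156 and 17217564 reads assigned to genes, in that order. The labels describe both as the same cell line and name no further treatment. The sources used here do not give the number of hairpins, the vector, the time after the hairpin was introduced or whether the cells were a pool or a clone. With 1 library per group there is no replicate check, no p-value is given, and higher and lower describe these 2 libraries.

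AP-1 is a dimer of basic leucine zipper proteins that binds the DNA element TGACTCA. JUN proteins pair with each other or with FOS proteins, while FOS proteins need a partner of another family, and ATF3 and BATF3 can pair with JUN proteins. The subunits differ in strength: JUN and FOS are strong activators, JUNB and JUND are often weaker ones, and FOSL1 and FOSL2, which encode FRA-1 and FRA-2, lack the potent activation domain of FOS. Most of these genes are transcribed within minutes of growth factor or stress signals, and FRA-1 is known for its high level in basal-like and mesenchymal breast cancer cells, where it is linked to invasion.

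Levels are given in RPKM, reads per kilobase of exon scaled to the assigned reads of the library, which corrects for gene length and so lets genes be set beside each other. Values in parentheses after a fold are 95% intervals for counting error only, and folds are plain ratios of RPKM. CDK14 itself stood at 2.48 RPKM in the control (292 reads) and 0.548 RPKM in CDK14-sh (58 reads), 22.1% of the control level. The row of the targeted transcript was thus lower in the library labelled CDK14-sh. That row shares 201 exon bases (2.94%) with CLDN12 on the same strand, and 47 bases each with AC006153.3 and CTB-13L3.1. CLDN12 was more abundant, at 8.74 RPKM (control) and 9.91 RPKM (CDK14-sh). Reads in the shared stretches cannot be assigned to CDK14 alone, so the remaining 22.1% may include reads of those rows. Of 8 genes taken as markers of mesenchymal breast cancer lines such as MDA-MB-231, 7 passed 1 RPKM. SPARC did not, with 0.0669 RPKM in CDK14-sh and 0.0481 RPKM in the control. Their summed level was 593 RPKM in CDK14-sh and 899 RPKM in the control. Of the 7, 6 were lower in CDK14-sh, and CD44 was 1.16-fold higher (1.13 to 1.18). MSN (2.56-fold), CAV1 (1.81-fold) and VIM (1.70-fold) were lower by 1.5-fold or more, as were 9.55% of all rows with at least 1 RPKM. Of 8 genes known to be low in the line, 5 were under 1 RPKM in both libraries, among them ESR1, PGR and CDH1, while EPCAM, ERBB2 and GATA3 lay between 2.33 and 5.46 RPKM. Summed markers reached 1.14 RPKM for leukocytes (3 of 5 genes had a row) and 0.438 RPKM for endothelium (3 genes, VWF at 0). Fibroblast markers reached 2.04 RPKM (5 genes, DCN and LUM at 0). Nearly all of that sum was COL1A1, which passed 1 RPKM on both sides: 1.99 RPKM from 303 CDK14-sh reads, against 1.65 RPKM from 279 control reads. Mitochondrial rows took 14.5% of control reads and 17.1% of CDK14-sh reads. The part of these differences in the AP-1 values was not tested. In bulk RNA, fewer cells that express a gene and less RNA per cell cannot be told apart.

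FOSL1 was by far the most abundant AP-1 gene in both libraries and was higher in CDK14-sh, while the other FOS genes were lower there. FOSL1, on the minus strand of chromosome 11 (65892049 to 65900573, GRCh38), stood at 263 RPKM in the control (8550 reads) and 445 RPKM in CDK14-sh (13011 reads). That is 1.69-fold higher (1.65 to 1.74). Ranked by RPKM among 15380 protein-coding rows, FOSL1 stood at place 26 in CDK14-sh and place 50 in the control. Among the 3380 protein-coding rows that reached 1000 reads in either library, its ratio was number 43 from the highest. In that deeply covered set 2.72% of rows were higher by 1.5-fold or more and 8.43% were lower.

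FOSL2, on the plus strand of chromosome 2 (28392448 to 28417312), stood at 30.2 RPKM in the control (3718 reads) and 15.8 RPKM in CDK14-sh (1749 reads), 1.91-fold lower (1.80 to 2.02). Its ratio was number 94 from the lowest among the same 3380 rows. FOSL1 and FOSL2, the pair without the strong activation domain, thus stood near opposite ends of the deeply covered genes. In the control, FOSL1 was 8.72 times as abundant as FOSL2 per length (8.39 to 9.07), and in CDK14-sh it was 28.2 times as abundant (26.8 to 29.7).

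FOS, the founding member of its family and a classical immediate early gene, lies on the plus strand of chromosome 14 (75278774 to 75282230). It stood at 11.8 RPKM in the control (656 reads) and 7.90 RPKM in CDK14-sh (396 reads), 1.49-fold lower (1.31 to 1.69). FOSB, which also gives rise to a truncated protein by splicing, was scarce. It stood at 1.05 RPKM in the control (100 reads) and 0.500 RPKM in CDK14-sh (43 reads), 2.09-fold lower (1.45 to 3.06). FOSB lies on chromosome 19 from 45467995 to 45475179, and its row sums 5553 bases of exons from all listed transcripts, so its RPKM is low for any single isoform. The 3 FOS genes other than FOSL1 summed to 24.2 RPKM in CDK14-sh and 43.0 RPKM in the control, 1.78-fold lower (1.68 to 1.88).

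The JUN genes differed less, and not in 1 direction. JUN, on the minus strand of chromosome 1 (58780788 to 58784327), is the strongest activator among the 3 and was the second most abundant AP-1 gene. It stood at 50.02 RPKM in the control (3049 reads) and 38.9 RPKM in CDK14-sh (2132 reads), 1.29-fold lower (1.22 to 1.36). JUNB, on the plus strand of chromosome 19 (12791496 to 12793315), can oppose JUN at some promoters. It stood at 15.5 RPKM in the control (487 reads) and 21.8 RPKM in CDK14-sh (614 reads), 1.40-fold higher (1.24 to 1.58). JUND, on the minus strand of chromosome 19 (18279760 to 18281622), is known for steady expression that depends little on growth signals. It stood at 33.3 RPKM in the control (1067 reads) and 30.6 RPKM in CDK14-sh (882 reads), a ratio of 0.920 (0.840 to 1.01) that was within counting error of equality.

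The JUNB row shares 259 of its 1820 exon bases (14.2%) with HOOK2 on the opposite strand, and the sources used here do not give the strand setting of the counting. HOOK2 itself had 600 reads in the control and 597 in CDK14-sh. Reads in the shared stretch cannot be assigned to JUNB alone. No exon of the other 8 AP-1 rows overlapped another row.

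ATF3 and BATF3 were near the limit of what was measured. ATF3, a stress-induced partner of JUN that often represses, stood at 0.633 RPKM in the control (44 reads) and 0.848 RPKM in CDK14-sh (53 reads), a ratio of 1.34 (0.881 to 2.05). The interval includes equality, and ATF3 stayed under the level filter of 1 RPKM in the higher library. BATF3, best known as a factor of dendritic cells, stood at 0.578 RPKM in the control (27 reads) and 1.14 RPKM in CDK14-sh (48 reads), 1.98-fold higher (1.21 to 3.30). Both genes lie on chromosome 1, ATF3 from 212565334 to 212620777 and BATF3 from 212686418 to 212699985. BATF3 passed the level filter through CDK14-sh alone and FOSB through the control alone.

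**Figure D1:**
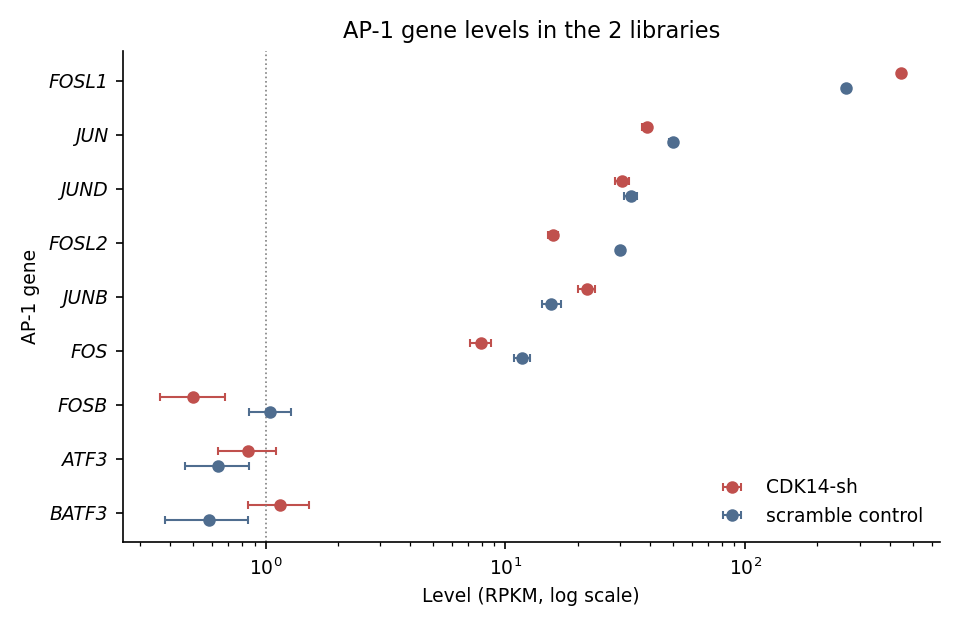
Level of each AP-1 gene in RPKM (x axis, log scale) in CDK14-sh (red) and the scramble control (blue), 1 library each, with 95% Poisson counting intervals as bars and a dotted line at 1 RPKM. FOSL1, at 445 and 263 RPKM, stands well apart from JUN, the next gene, at 38.9 and 50.02 RPKM.

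The order of levels was similar in both libraries at the top and differed below it. In the control it ran FOSL1, JUN, JUND, FOSL2, JUNB, FOS, FOSB, ATF3 and BATF3. In CDK14-sh, JUNB stood above FOSL2, and BATF3 and ATF3 stood above FOSB. The lowest neighbours in the control, ATF3 and BATF3, did not differ beyond counting error, with a level ratio of 1.09 (0.663 to 1.84), nor did BATF3 and ATF3 in CDK14-sh, with 1.35 (0.893 to 2.03). Each other neighbour differed from the next by more than counting error within its library, the closest being JUND and FOSL2 in the control with 1.10 (1.03 to 1.18).

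For counts, 0.1 RPKM was added to each level and the higher of both levels had to reach 1 RPKM, which 8 of the 9 AP-1 genes did. None of the 8 was 2-fold or more higher or lower, where the whole table had 3.21% higher and 3.47% lower by that measure among 14878 rows. The lower count rests on the added value and the scale. FOSB passed with 0.01 RPKM added, as did 3.73% of all rows. FOSB and FOSL2 both passed after rescaling each library to the same RPKM sum (TPM). There the filter was 1 TPM, which all 9 AP-1 genes reached. Of the 17068 rows it let in, 6.61% were lower by that much. That rescaling moves every ratio by -0.15 on the log2 scale before 0.1 is added, here in TPM. At 1.5-fold, 2 AP-1 genes were higher (FOSL1 and BATF3), against 9.11% of all rows, and 2 were lower (FOSL2 and FOSB), against 9.55%. The counting interval lay above equality for 3 of the 8 (FOSL1, JUNB and BATF3), against 27.3% of all rows, and below it for 4 (FOS, FOSB, FOSL2 and JUN), against 22.6%. Such intervals shrink with depth and hold no spread between cultures. BATF3 and FOSB reached 1 RPKM only in the library where each was higher. The level filter thus let them in through their difference, and their places in these counts are no independent support. The median log2 ratio of the 8 genes was -0.24, and that of all rows was 0.04.

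**Figure D2:**
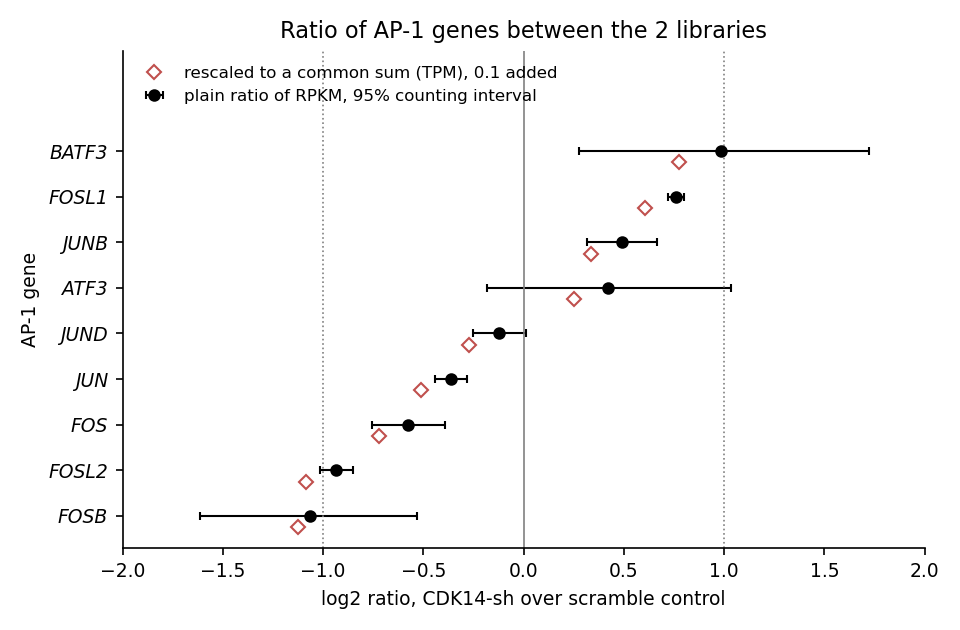
Log2 ratio of CDK14-sh over the scramble control for each AP-1 gene, as the plain ratio of RPKM with its 95% counting interval (black) and after rescaling to a common sum with 0.1 added (open red diamonds); dotted lines mark 2-fold. FOSL1, JUNB and BATF3 lie to the right of 0 and FOS, FOSB, FOSL2 and JUN to the left, with both scales on the same side for each gene.

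Summed over the family, FOS genes were higher in CDK14-sh and JUN genes slightly lower. The 4 FOS genes summed to 470 RPKM in CDK14-sh (462 to 477) and 306 RPKM in the control (300.5 to 312), a ratio of 1.53 (1.496 to 1.57), with FOSL1 the only member of the 4 that was higher. The 3 JUN genes summed to 91.3 RPKM (88.2 to 94.5) and 98.8 RPKM (95.9 to 102), a ratio of 0.924 (0.882 to 0.967). FOS family transcripts were therefore 5.14 times as abundant as JUN family transcripts per length in CDK14-sh and 3.10 times in the control. ATF3 and BATF3 together summed to 1.99 and 1.21 RPKM. All 9 genes summed to 563 RPKM in CDK14-sh and 406 RPKM in the control, a ratio of 1.39 (1.36 to 1.42). Without FOSL1 the other 8 summed to 117 and 143 RPKM, 1.22-fold lower (1.17 to 1.26).

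The make-up of the FOS family shifted further toward FOSL1. FOSL1 held 94.8% of FOS family RPKM in CDK14-sh (94.6% to 95.1%) and 86.0% in the control (85.5% to 86.4%). FOSL2 held 3.36% (3.20% to 3.53%) and 9.86% (9.52% to 10.2%). FOS held 1.68% (1.52% to 1.86%) and 3.84% (3.56% to 4.15%), and FOSB 0.107% and 0.342%. FOSL1 was thus the bulk of the family in both libraries, and each of the others held a smaller share in CDK14-sh. Shares within a library do not depend on how the libraries are scaled to each other, although they do depend on the length assigned to each gene. By reads without length, FOSL1 held 85.6% and 65.6% and FOSL2, whose row is 7157 bases long, 11.5% and 28.5%.

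In the JUN family the share of JUNB was larger in CDK14-sh and that of JUN smaller. JUN held 42.6% of JUN family RPKM in CDK14-sh (41.0% to 44.2%) and 50.6% in the control (49.1% to 52.1%). JUNB held 23.9% (22.3% to 25.5%) and 15.7% (14.5% to 17.0%). JUND held 33.5% (31.8% to 35.2%) and 33.7% (32.1% to 35.2%), and those shares overlapped. JUN was 3.22 times as abundant as JUNB in the control (2.92 to 3.55) and 1.79 times in CDK14-sh (1.63 to 1.96). Of all 9 genes together, FOSL1 held 79.1% in CDK14-sh and 64.8% in the control, and JUN 6.91% and 12.3%.

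**Figure D3:**
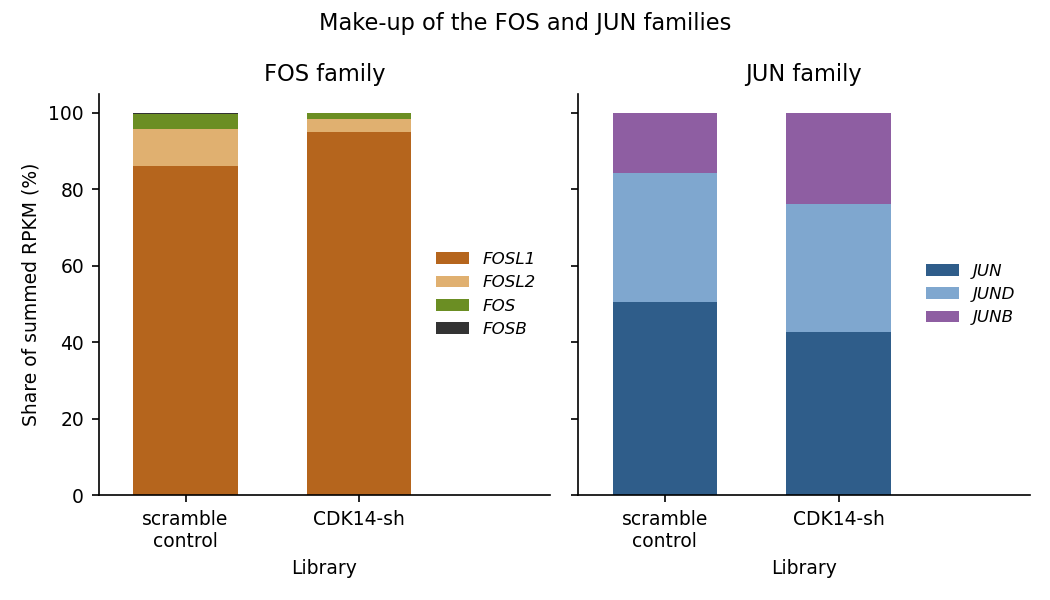
Share of each gene in the summed RPKM of the FOS family (left) and the JUN family (right), in percent, in the scramble control and in CDK14-sh, 1 library each. FOSL1 fills 86.0% of the control bar and 94.8% of the CDK14-sh bar, and in the JUN family JUNB takes 15.7% and 23.9%.

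AP-1 genes are themselves regulated by AP-1 and CREB or ATF dimers, and their promoters were read for the sites of those factors. The letters were chosen after these promoters had been read, so their counts beside all windows are descriptive and not independent evidence. RefSeq promoter windows (GRCh38.p14, 250 bases before to 50 after the start) were on hand for 7 of the 9 genes, not for FOSL1 and BATF3. The searched letters were TGACTCA (the AP-1 element), TGACGTCA (the cyclic AMP response element), its core TGACG, which also lies inside TGACGTCA, and TGACATCA, a variant found in the JUN promoter, each on both strands. The core TGACG occurred in 6 of the 7 genes with a window, all but ATF3, and in 24.6% of 35116 promoter windows. TGACTCA occurred in FOSL2 only among the 7, and in 4.95% of all windows. TGACGTCA occurred in JUND only, 200 bases upstream, and in 1.85% of all windows, and TGACATCA in JUN and ATF3 and in 2.61% of all windows. TATAAA and CCAAT were searched as well, and each occurred in 4 of the 7 genes, against 11.5% and 34.6% of all windows. A match of letters does not show binding.

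The windows below are those of the 4 genes with at least 300 reads in both libraries whose counting interval excluded equality and that have a RefSeq window. They stand at chr2:28392608-28392907 (FOSL2, plus strand), chr14:75278578-75278877 (FOS, plus strand), chr1:58783998-58784297 (JUN, minus strand) and chr19:12791236-12791535 (JUNB, plus strand). Each is written from 5′ to 3′ along its gene, and capitals mark the searched letters other than TATAAA and CCAAT.
FOSL2 promoter: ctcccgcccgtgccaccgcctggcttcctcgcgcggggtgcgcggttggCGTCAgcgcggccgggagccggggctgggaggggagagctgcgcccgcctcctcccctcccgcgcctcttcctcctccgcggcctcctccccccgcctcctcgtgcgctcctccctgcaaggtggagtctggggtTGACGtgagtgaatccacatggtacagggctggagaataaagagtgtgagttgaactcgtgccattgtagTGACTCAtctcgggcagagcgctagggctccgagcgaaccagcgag
FOS promoter: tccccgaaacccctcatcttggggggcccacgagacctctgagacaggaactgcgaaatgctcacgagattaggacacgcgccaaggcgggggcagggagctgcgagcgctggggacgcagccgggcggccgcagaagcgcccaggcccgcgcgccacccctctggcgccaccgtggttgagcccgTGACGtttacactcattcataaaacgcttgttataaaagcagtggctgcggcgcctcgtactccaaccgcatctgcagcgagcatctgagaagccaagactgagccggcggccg
JUN promoter: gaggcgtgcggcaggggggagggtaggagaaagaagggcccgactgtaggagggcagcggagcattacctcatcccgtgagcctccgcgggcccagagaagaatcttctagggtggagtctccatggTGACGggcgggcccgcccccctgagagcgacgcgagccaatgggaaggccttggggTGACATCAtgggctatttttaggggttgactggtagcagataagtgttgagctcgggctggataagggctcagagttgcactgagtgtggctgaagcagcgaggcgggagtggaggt
JUNB promoter: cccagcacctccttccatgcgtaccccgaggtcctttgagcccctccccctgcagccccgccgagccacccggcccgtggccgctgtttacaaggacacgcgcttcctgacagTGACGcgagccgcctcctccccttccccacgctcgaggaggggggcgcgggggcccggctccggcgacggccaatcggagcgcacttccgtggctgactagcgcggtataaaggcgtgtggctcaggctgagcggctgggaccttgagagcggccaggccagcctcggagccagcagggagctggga

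The FOSL2 window held TGACG 66 bases upstream of the start and on the opposite strand 201 bases upstream, and TGACTCA at base 5 after the start. The FOS window held TGACG 64 bases upstream, followed by a TATAAA box 33 bases upstream. The JUN window held TGACG 123 bases and TGACATCA 67 bases upstream and no TATAAA. The JUNB window held TGACG 137 bases upstream and TATAAA 31 bases upstream. FOSL2, FOS and JUN, which were lower in CDK14-sh, and JUNB, which was higher, thus all held the core TGACG. The letters were chosen after these windows had been read, and a link between them and the levels was not tested.

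Messages of immediate early genes are short-lived, and AU-rich elements in their 3' untranslated regions are known to speed their decay. The letters ATTTA occurred in the longest GENCODE 3' untranslated region of all 9 AP-1 genes, against 74.7% of 10274 protein-coding genes passing the level filter. The longer element TATTTAT occurred in 7 of the 9, all but JUNB and BATF3, against 36.5%. FOS held 5 copies of ATTTA in 806 bases, or 6.20 per kb, and FOSL2 held 9 in 4864 bases, or 1.85 per kb. FOSL1 held 1 in 837 bases, or 1.19 per kb, and the median over all genes was 1.78 per kb. Over the 10274 genes the median log2 ratio was 0.01 with TATTTAT and 0.05 without it. An earlier look at these same ratios had picked 4 short words as frequent in genes lower in CDK14-sh, namely TCCATAA with its overlapping neighbour ATCCATA, as well as TCATGCA with its overlapping neighbour GTCATGC. FOS held TCATGCA and the other 8 AP-1 genes held none of them. Any of these words occurred in 25.3% of the 10274 genes.

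Partners and regulators of AP-1 were counted from lists of textbook genes. Some genes named from these lists share exon bases with another row, where reads cannot be assigned to 1 gene: ATF7, BACH1, DDIT3, ELK3, FBXW7, LIF, MAFK, MAPK8IP1, MEF2C, PLAU and VIM. The largest part shared with a single other row was 31.1% of the PLAU exon bases, which lie opposite C10orf55. ATF7 shares 25.6% of its exon bases with 1 row and 18.2% with another. Among other dimer partners, which include MAF, ATF and C/EBP proteins, 17 of 22 were measured, and none reached 2-fold in either direction, where 3.21% of all rows were higher and 3.47% lower by that much. A list of this size with none is near that background. The median log2 ratio was 0.15, or 0.01 in TPM, where all rows had medians of 0.04 and -0.11. BATF, the close relative of BATF3, was 1.78-fold higher (1.05 to 3.06, with 40 and 25 reads), CEBPG 1.44-fold higher and MAFK 1.27-fold higher. DDIT3 was 1.28-fold lower, ATF7 1.23-fold and BACH1 1.14-fold.

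Kinases that switch AP-1 on, in the ERK, JNK and p38 cascades, stayed within 2-fold, as did most rows of the table (3.21% were higher and 3.47% lower). Of 39 listed, 35 were measured, with a median log2 ratio of 0.05 (-0.12 in TPM), and none was higher by 1.5-fold or more (9.11% of all rows were). MAPK14, encoding p38 alpha, stood at 8.89 RPKM in CDK14-sh and 14.01 RPKM in the control, 1.58-fold lower (1.45 to 1.71). MAPK8IP1, a scaffold of the JNK cascade, was 1.45-fold higher (0.985 to 2.13, an interval that includes equality), MAP2K3, which activates p38, 1.41-fold higher and MAP2K5 1.38-fold higher.

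Factors that act on the FOS and JUN promoters went both ways, with 19 of 19 measured and a median log2 ratio of -0.07 (-0.22 in TPM). STAT3 stood at 5.51 RPKM in CDK14-sh and 11.6 RPKM in the control, 2.11-fold lower (1.93 to 2.30), and was the 1 gene of the list past 2-fold, a share near the 3.47% of all rows. MEF2C was 1.71-fold lower and the coactivator CREBBP 1.503-fold lower. SRF, the factor that binds the serum response element of FOS, stood at 23.3 and 12.3 RPKM, 1.89-fold higher (1.74 to 2.06). Its partners ELK3 and ELK1 were 1.54-fold and 1.30-fold higher. FOS, whose upstream serum response element SRF and ELK proteins bind, was lower in the same library. A link between the levels of SRF, its partners and FOS was not tested.

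Other immediate early genes lay on both sides of equality. Of 38 listed, 30 were measured, with a median log2 ratio of 0.15 (-0.01 in TPM, where all rows had -0.11). Of the 30, 20 lay above 0 and 10 below, and of all 14878 rows 8135 lay above and 6743 below. KLF6, a zinc finger factor, stood at 14.2 RPKM in CDK14-sh and 31.5 RPKM in the control, 2.22-fold lower (2.08 to 2.37). DUSP1 and DUSP5, phosphatases that switch MAP kinases off, were 1.67-fold and 1.60-fold lower. RHOB was 1.90-fold higher, PTGS2, encoding cyclooxygenase 2, 1.83-fold higher and HBEGF 1.78-fold higher.

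Among genes known as AP-1 targets, 5 of 33 measured were higher by 2-fold or more (3.21% of all rows were), none was lower by that much (3.47%), and the median log2 ratio was 0.21, with 21 above 0 and 12 below. The list was drawn up with earlier results on some of its genes known, so its direction is not independent evidence. PLAU, encoding the plasminogen activator urokinase, stood at 119.6 RPKM in CDK14-sh and 46.8 RPKM in the control, 2.56-fold higher (2.44 to 2.68). LIF was 2.48-fold higher. HMOX1 was 2.20-fold lower as a plain ratio (1.24 to 4.04, from 18 against 44 reads), VIM 1.70-fold lower and DUSP1 1.67-fold lower. In TPM the median of the list was 0.06, where all rows had a median of -0.11.

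**Figure D4:**
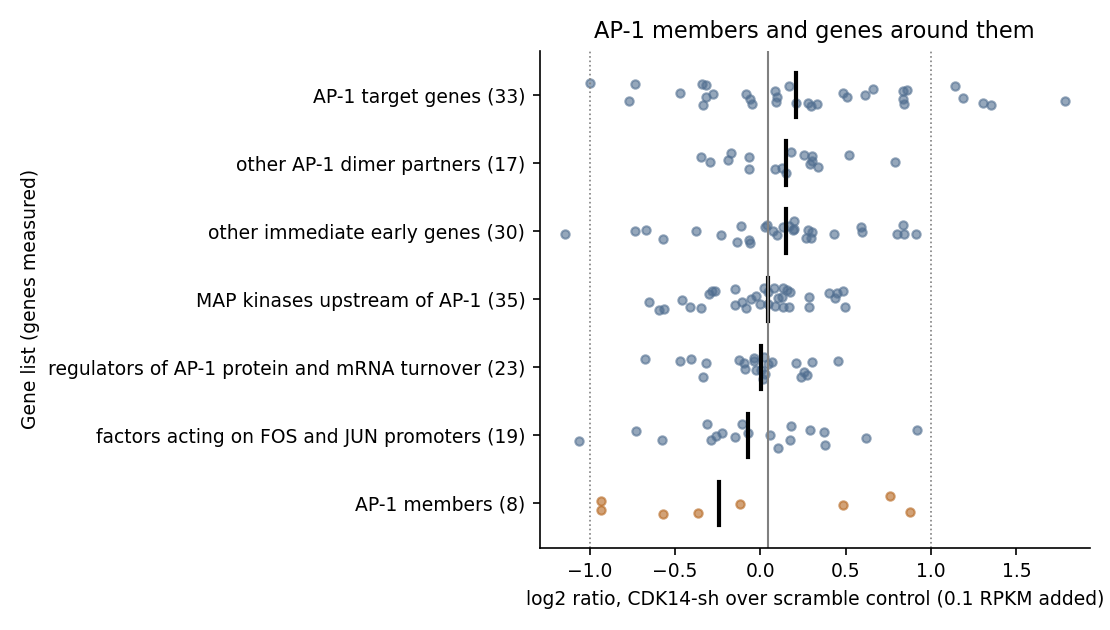
Log2 ratio of CDK14-sh over the scramble control, with 0.1 RPKM added, for the AP-1 genes passing the level filter (orange) and for genes of the other lists (blue), 1 point per gene; black bars are list medians, the grey line is the median of all rows (0.04) and dotted lines mark 2-fold. AP-1 genes have a median of -0.24 and lie on both sides, and the 5 points past 2-fold on the right belong to AP-1 targets.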

How the data were processed

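RNA of 2 MDA-MB-231 cultures was sequenced from a stranded mRNA kit, per the labels' protocols. The authors deposited RPKM values for each row with its exon positions and summed exon length, per the file headers. Bowtie 0.12.2, featureCounts and Subread 1.5.1, with builds GRCh38 and mm8, are named in the submitters' processing notes without roles. Coordinates are on GRCh38: 19350 of 20552 rows matched by name to GENCODE release 29 had the same start and end. Multiplied by length, 100% of the nonzero values came out as whole reads (tolerance 0.01 read), and these reads were used for errors. Ratios got 95% Clopper-Pearson intervals. Intervals of sums and shares of RPKM used the delta method on Poisson counts. All cover counting error only. In a gene of 1 kb, 3 reads are 0.194 RPKM in CDK14-sh and 0.174 RPKM in the control.

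Log2 ratios were taken after adding 0.1 RPKM, which makes differences of low genes look smaller. The AP-1 genes and the lists were chosen with earlier results of these data known. From each list the 3 largest ratios in each direction were named, among genes above 0 in both libraries whose higher value reached 1 RPKM and 30 reads; some of these are not reported here. No gene was named for a like pattern, since 2 libraries give 1 ratio per gene. The motifs were chosen after the promoters were read. Tested on simulated counts for this comparison over 29452 rows, 50 of 50 genes at 2.5-fold and 0 of 50 at 1.5-fold passed 2-fold. The changed genes were drawn from well-covered rows only, and counting noise was the only noise. The check therefore covers neither genes as scarce as FOSB, ATF3 and BATF3 nor any spread between cultures. Alternatives covered the added value, level filter, scaling, fold and read shares. The software was matplotlib 3.10.9, scipy 1.17.1, pandas 2.3.3 and numpy 2.4.6 under Python 3.11.15.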

Additional observations from a re-analysis of the deposited data

How the results depend on the processing

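No paired analysis was possible because there was a single library on each side, and for the same reason no library could be left out. AP-1 genes had 69 log2 ratios in other settings, of which 61 lay inside the gene's counting interval, 8 lay outside and 0 had the opposite sign. The 69 include changes of the level filter alone, which leave a gene's own ratio as it is and so lie inside by construction. FOSL1 lay outside its interval with each change of scaling: TPM, median centring, trimmed mean and mitochondrial reads left out. FOSL1 ranged from 0.61 to 0.80, FOSL2 from -1.08 to -0.89, JUN from -0.51 to -0.32 and JUNB from 0.33 to 0.53. AP-1 genes at least 2-fold lower numbered 0, 1 with 0.01 RPKM added (FOSB) and 2 in TPM (FOSB and FOSL2). At 1.5-fold 2 were higher and 2 lower. Over all rows, 478 were higher and 516 lower. Adding 1 RPKM gave 176 and 259, dropping the level filter 2173 and 2043, a filter of 5 RPKM 83 and 177, and a threshold of 1.5-fold 1355 and 1421. TPM gave 1128 lower among the 17068 rows that reached 1 TPM. With at least 30 reads they were 166 and 290, and among protein-coding genes 109 and 226, both settings chosen after seeing the data, as was leaving mitochondrial reads out of the totals. The FOS family ratio of 1.53 was 1.38 in TPM, 1.49 with trimmed-mean scaling and 1.58 without mitochondrial reads, and the JUN family ratio of 0.924 was 0.831 in TPM. These settings move every ratio of a library pair alike. Medians of the MAP kinases and of the turnover regulators were -0.12 and -0.15 in TPM, against 0.05 and 0.003. By reads without length, the share of FOSL1 in its family differed by 20.0 percentage points between CDK14-sh and the control (8.89 by RPKM), FOSL2 by -17.0 (-6.49) and FOSB by -0.485 (-0.235). Of all 9 genes, FOSL1 differed by 20.4 points (14.3), FOSL2 by -11.8 (-4.62), JUN by -5.96 (-5.40), JUND by -1.37 (-2.76) and FOSB by -0.338 (-0.169). Depth limits FOSB, ATF3 and BATF3, with 27 to 100 reads each.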

Other observations

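Genes whose products set how long AP-1 proteins and messages last had a median log2 ratio of 0.003 in RNA level, and all rows had 0.04. Of 24 listed, 23 were measured and none reached 2-fold, a count near the background of 3.21% higher and 3.47% lower among all rows. ZFP36L1, whose product binds AU-rich elements and speeds decay, stood at 24.1 RPKM in CDK14-sh and 38.5 RPKM in the control, 1.60-fold lower (1.51 to 1.69). The deadenylase gene PARN was 1.33-fold lower. FBXW7, the ubiquitin ligase subunit that targets JUN for destruction, was 1.38-fold higher (1.23 to 1.55). RFWD2, which encodes the JUN ligase COP1, was 1.24-fold higher and MEN1, encoding the JUND partner menin, 1.21-fold higher.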
